A study of Mus musculus with 2 samples.

Results

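The genes described here were 10 tight junction genes of mouse intestinal epithelium, chosen by name from the 37172 genes of the deposited expression table. They were the pore-forming claudins Cldn2 and Cldn15, the barrier-type (sealing) claudins Cldn3, Cldn4, Cldn7 and Cldn8, the claudins Cldn12 and Cldn23, occludin (Ocln) and the scaffold gene Tjp1. All 10 had a row in the table. The rule that picks their rows is by name and uses no measured value, though the names were chosen with earlier results of these data known.

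The study grew crypts from the proximal small intestine of C57BL/6 WT mice as organoids, which are small epithelial bodies that form in a gel, and asked how single cells differed between cystic spheres in collagen and budding organoids in Matrigel. Collagen organoids were in type I collagen under ENRW medium, which holds EGF at 50 ng/mL, Noggin at 100 ng/mL and R-spondin1 at 400 ng/mL, to which 10 mM nicotinamide, 1% BSA and Wnt3a (100 ng/mL) were added. Matrigel organoids were under ENR medium, with the same EGF, Noggin and R-spondin1 and none of the 3 additions. Both were taken on day 4. Collagen was dissolved with collagenase at 0.5 mg/mL and Matrigel with Cell Recovery Solution, and both then had 15 to 30 minutes in TrypLE and passed a 40 µm strainer. The matrix, the medium and the release step differed together and cannot be told apart. Cells of the cultures were marked with hashtags carried by an EpCAM antibody, pooled, captured on the BD Rhapsody system and amplified by TAS-Seq into a single cDNA library. There was 1 suspension per culture, and the labels do not say how many mice or wells went into it, so no difference between cultures has a replicate check and no p-value is given.

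Tight junctions seal the space between epithelial cells near their apical edge and set which ions and solutes can pass through it. Claudins are the membrane proteins that line this paracellular path: some form channels for small cations and water, and others close it. Occludin and its MARVEL-domain relatives, and cytoplasmic scaffolds such as ZO-1, the product of Tjp1, organise claudin strands and tie them to actin. In the gut, Cldn2 is known from crypts and from the immature intestine, and Cldn15 is the main sodium channel of small intestinal junctions.

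The upstream sequences of 3 claudins are shown because Cldn4 differed most between the cultures among the 10 genes, Cldn3 is its neighbour on chromosome 5 and Cldn2 is a pore-forming gene whose counts ran against those of Cldn4 across collagen cells. Each is the 250 bases before the annotated start on the gene's own strand, from RefSeq on GRCm38.p6, which is not the build of the deposited counts. Capitals mark matches, on either strand, to 4 short motifs. The AP-1 motif was searched as TGANTCA and the Cdx motif, bound by gut homeobox factors, as TTTATG. The TEAD motif, bound by partners of YAP, was searched as GGAATG and the box bound by TBP as TATAAA, and no match overlapped another.
Cldn4, chr5:134946935-134947184, minus strand: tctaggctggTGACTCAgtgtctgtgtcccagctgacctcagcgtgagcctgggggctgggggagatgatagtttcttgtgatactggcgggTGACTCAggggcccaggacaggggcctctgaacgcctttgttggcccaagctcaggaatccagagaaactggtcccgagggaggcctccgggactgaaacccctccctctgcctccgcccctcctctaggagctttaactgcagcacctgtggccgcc
Cldn3, chr5:134985964-134986213, plus strand: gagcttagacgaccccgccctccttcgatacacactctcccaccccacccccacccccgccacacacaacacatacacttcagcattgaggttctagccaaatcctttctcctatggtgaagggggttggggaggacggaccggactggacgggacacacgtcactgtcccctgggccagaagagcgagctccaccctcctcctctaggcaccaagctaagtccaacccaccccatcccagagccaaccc
Cldn2, chrX:139800558-139800807, plus strand: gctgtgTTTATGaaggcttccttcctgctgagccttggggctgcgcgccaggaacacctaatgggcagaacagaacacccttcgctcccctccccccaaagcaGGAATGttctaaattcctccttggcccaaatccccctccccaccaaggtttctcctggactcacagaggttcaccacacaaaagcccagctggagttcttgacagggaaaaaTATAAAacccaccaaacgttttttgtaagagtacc

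The Cldn4 stretch held the AP-1 letters at 2 places, which began 240 and 158 bases before the start, and the Cldn3 stretch held none of the 4 motifs. Cldn2 held the TATA letters 35 bases before its start, a Cdx match and a TEAD match. Windows that also take in 50 bases after the start were searched for every gene: the AP-1 letters were in 7.79% of 32544 windows, the Cdx letters in 11.9%, the TEAD letters in 14.6% and the TATA letters in 13.6%. Of the 8 genes of the 10 with a window, the AP-1 letters were in Cldn4 and Cldn15, and the Cdx and TATA letters in Cldn2. The TEAD letters were in Cldn2, Cldn15 and Cldn7. The percentages count windows and the members count genes, and Cldn12, Cldn7 and Ocln had several windows each, so the measures are unlike. A match of letters is a description of the sequence and says nothing of whether a factor binds it.

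The 336 collagen cells held 42540314 counts, with a median of 124619 per cell, and the 1599 Matrigel cells held 285201649, with a median of 179044. Epithelial markers (Epcam, Cdh1, Krt8, Krt18 and Vil1) summed to 6031 counts in every 1000000 counts (CPM) in collagen cells and 3145 CPM in Matrigel cells. The endothelial, mesenchymal and immune lists each summed to under 2 CPM in both cultures. Marker lists of the epithelial types also differed: the 5 regenerative genes summed to 904 CPM in collagen cells and 25.5 CPM in Matrigel cells, the 6 stem genes to 269.8 CPM in collagen cells and 2715 CPM in Matrigel cells, and the 10 enterocyte genes to 1494 CPM in collagen cells and 1093 CPM in Matrigel cells. The 4 enteroendocrine genes summed to 605 CPM in collagen cells and 113 CPM in Matrigel cells, the 6 goblet genes to 1039 CPM in collagen cells and 1186 CPM in Matrigel cells, and the 4 tuft genes to 5.32 CPM in collagen cells and 8.48 CPM in Matrigel cells. The 6 Paneth genes had 0 (Defa30 and Ang4) to 1036 CPM each in collagen cells and 13.2 to 618 CPM each in Matrigel cells. Single genes led some of the sums. The highest enteroendocrine gene had 569 CPM in collagen cells and 92.5 CPM in Matrigel cells. The highest enterocyte gene had 1110 CPM in collagen cells and 449 CPM in Matrigel cells. The part of these types in the levels below was not tested, other than by the classes described. No cell barcode was shared between cells. No source used here says whether reads of a molecule were collapsed into 1 count. The exact 95% intervals below cover counting error only and are too narrow if copies were counted.

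Levels in each culture were sums over its cells in CPM, and differences were log2 ratios of collagen over Matrigel with 1 CPM added. Cldn4, Tjp1 and Cldn23 passed 2-fold, with the higher level in collagen cells. These 3 were of 9 members that reached 5 CPM in either culture, and among all 10593 genes that did so 8.21% were at least 2-fold higher. None of the 9 was at least 2-fold lower, where 8.91% of all genes were. The median log2 ratio was 0.60 over the 9 members and -0.02 over all genes tested, and Cldn15 alone of the 9 had a ratio below 0. Lists of polarity, desmosome and adherens junction genes, given below, had medians close to that of the members. Cldn8, at 0.212 CPM in collagen cells and 1.36 CPM in Matrigel cells, stayed under the 5 CPM limit.

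**Figure D1:**
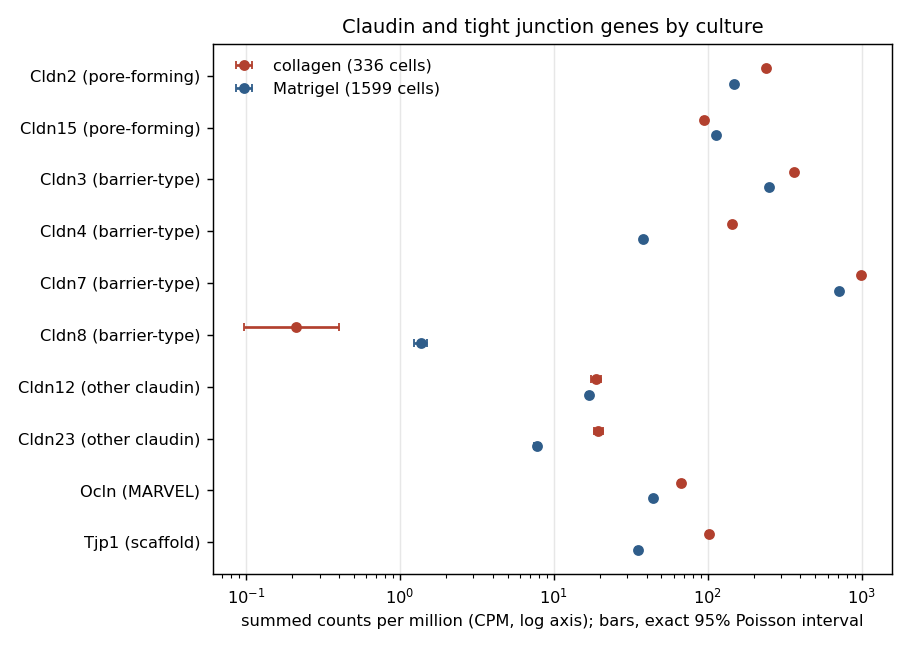
Summed CPM (log axis) of the 10 genes in collagen cells (red, upper point of each pair) and Matrigel cells (blue, lower point), with exact 95% Poisson intervals, which are mostly narrower than the points. The red point lies to the right of the blue one for 8 genes and to the left for Cldn15 and Cldn8.

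Among the pore-forming claudins, Cldn2 was higher in collagen cells and Cldn15 lower. Cldn2, which makes channels for cations and water, had 0, 15 and 93 counts in the lowest, median and highest of 264 collagen cells after every cell was thinned to 77858 counts, against 0, 10 and 50 in 1477 Matrigel cells. The distributions overlapped over most of their range, and the collagen cells were the more spread: their coefficient of variation (SD divided by the mean) was 0.898, against 0.714 in Matrigel cells. The sum was 239 CPM in collagen cells (interval 234 to 243) and 147 CPM in Matrigel cells (146 to 149), a log2 ratio of 0.69 and a fold of 1.62. The share of thinned cells with a count ran the other way, at 90.5% in collagen cells (exact binomial interval 86.3% to 93.8%) and 95.7% in Matrigel cells (94.6% to 96.7%), and unthinned shares were 83.6% in collagen cells and 94.9% in Matrigel cells. Collagen thus had a larger share of cells without Cldn2 and a higher upper range.

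Cldn15 had 0, 6 and 39 counts in the lowest, median and highest thinned collagen cells, against 0, 8 and 49 in Matrigel cells. Its sum was 94.2 CPM in collagen cells (91.3 to 97.2) and 113 CPM in Matrigel cells (112 to 114), a log2 ratio of -0.26. It was found in 81.8% of thinned collagen cells (76.6% to 86.3%) and in 96.8% of thinned Matrigel cells (95.7% to 97.6%). Both the level and the share of cells were lower in collagen, and the ranges overlapped almost wholly. Unthinned shares were 75% in collagen cells and 95.4% in Matrigel cells. No cell type of these cultures is known beforehand to lack the claudins, so the level that free RNA gives was not read from such a type. The lowest class levels of Cldn15 were those of enteroendocrine-marker cells, described below. They were 4.12 CPM in collagen (4 cells) and 8.06 CPM in Matrigel (9 cells). The part of free RNA in the levels was not tested.

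The barrier-type claudins were higher in collagen cells at every member that reached 5 CPM, with Cldn4 furthest apart. Cldn4, a barrier-type claudin and receptor for Clostridium perfringens enterotoxin, had 0, 2 and 221 counts in the lowest, median and highest thinned collagen cells, against 0, 1 and 141 in Matrigel cells. The 90th percentile was 34.7 counts in collagen cells and 8 in Matrigel cells, so the cultures were close at the median and apart in the upper tail. In collagen, the top 27 of the thinned cells held 68.2% of the thinned Cldn4 counts. The top 148 of the Matrigel cells held 50.0% of theirs. The sum was 143 CPM in collagen cells (139.7 to 147) and 37.9 CPM in Matrigel cells (37.1 to 38.6), a log2 ratio of 1.89 and a fold of 3.71. Despite that fold, shares of thinned cells with a count were near each other, at 71.2% in collagen cells (65.3% to 76.6%) and 64.3% in Matrigel cells (61.8% to 66.8%). Unthinned shares were 72.3% in collagen cells and 75.4% in Matrigel cells, in the other order.

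A large part of the collagen Cldn4 lay in cells with a count of Sprr1a, a gene of cornified and injured epithelia. These 74 cells, 22.0% of the collagen cells, held 19.7% of all counts and 50.7% of the Cldn4 counts, at 369 CPM. Matrigel had 89 cells with Sprr1a, and their Cldn4 was 39.7 CPM, close to the culture's level. Without every cell that held Sprr1a, a set chosen after the values were seen, the log2 ratio of Cldn4 was 1.20 and its call stood. The same 74 collagen cells had 545 CPM of Cldn3, 107 CPM of Ocln and 127 CPM of Tjp1, each above the level of the whole culture. They had 154 CPM of Cldn2 and 65.5 CPM of Cldn15, both below it.

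Cldn3, a strand-forming claudin found throughout the gut, had 2, 24 and 144 counts in the lowest, median and highest thinned collagen cells, against 0, 18 and 118 in Matrigel cells. Every thinned collagen cell and 1475 of the 1477 Matrigel cells held it. Its sum was 363 CPM in collagen cells (357 to 369) and 251 CPM in Matrigel cells (249 to 253), a log2 ratio of 0.53. Nearly all cells of both cultures thus held Cldn3, and the cultures differed in its amount per cell. Without the cells with Sprr1a, its ratio was 0.34.

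Cldn7, a claudin of the lateral membrane that binds EpCAM, had 7, 78 and 208 counts in the lowest, median and highest thinned collagen cells, against 11, 55 and 115 in Matrigel cells. It had the narrowest spread relative to its mean of the 10 genes in either culture, with coefficients of variation of 0.363 in collagen cells and 0.283 in Matrigel cells. It also had the highest mean count per thinned cell of the 10, at 80.7 in collagen and 55.8 in Matrigel. The coefficients include counting error and were not adjusted for the mean, so they do not rank genes of unlike level. The sum was 988 CPM in collagen cells (979 to 998) and 714 CPM in Matrigel cells (711 to 717), a log2 ratio of 0.47. Epcam, which encodes its partner and the protein that carried the hashtags, had a ratio of 0.44, at 1458 CPM in collagen cells and 1076 CPM in Matrigel cells. Cldn7 and Epcam thus differed between the cultures by like amounts.

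Cldn8, a barrier claudin of the distal nephron and the colon, was near absent. It had 9 counts over all collagen cells (0.212 CPM, interval 0.0967 to 0.402) and 387 over all Matrigel cells (1.36 CPM, 1.23 to 1.5). After thinning, 2 of 264 collagen cells held it, a share of 0.758% (0.0919% to 2.71%), against 86 of 1477 Matrigel cells, a share of 5.82% (4.68% to 7.14%). The highest thinned cell had 1 count in collagen and 5 in Matrigel. Its level was lower in collagen, and it was too low in both for a call.

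Summed by role, the barrier-type claudins differed somewhat more between cultures than the pore-forming ones. Cldn2 and Cldn15 together had 333 CPM in collagen cells and 260.4 CPM in Matrigel cells, a log2 ratio of 0.35. Cldn3, Cldn4, Cldn7 and Cldn8 together had 1495 CPM in collagen cells and 1004 CPM in Matrigel cells, a ratio of 0.57. The difference of these ratios was -0.22, and the pore-forming sum was 22.3% of the barrier-type sum in collagen cells and 25.9% in Matrigel cells. These sums are led by Cldn2 and Cldn7, the members with the most counts. The difference rested on the cells with Sprr1a: without them it was 0.00, and among the 74 such collagen cells the pore-forming sum was 11.4% of the barrier-type sum.

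The balance varied more from cell to cell in collagen than in Matrigel. The pore-forming share of the counts of these 6 claudins in a thinned cell had a median of 18.0% in collagen cells, with a 10th percentile of 2.12% and a 90th of 37.1%. In Matrigel cells the median was 20.2%, with a 10th percentile of 9.88% and a 90th of 31.4%. The SD over cells was 13.0 percentage points in collagen and 8.42 in Matrigel. The medians were near each other and the tails were not: 11 collagen cells and 8 Matrigel cells held no pore-forming claudin count at all.

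Of the other claudins, Cldn23 was higher in collagen cells and Cldn12 was near equal. Cldn23, a claudin of differentiated gut surface cells that is known to associate with claudin-3 and claudin-4, had 0, 0 and 22 counts in the lowest, median and highest thinned cell of each culture. Most cells held none, and the cultures differed in how many did: 43.2% of thinned collagen cells (37.1% to 49.4%) and 21.9% of thinned Matrigel cells (19.8% to 24.1%), with unthinned shares of 41.4% in collagen cells and 30.3% in Matrigel cells. Its sum was 19.4 CPM in collagen cells (18.1 to 20.8) and 7.75 CPM in Matrigel cells (7.43 to 8.08), a log2 ratio of 1.22. The call did not stand at this low level with 5 CPM added in place of 1, where the ratio was 0.94, or with every cell weighted the same, where it was 0.99. Cldn12, linked to calcium uptake in the gut, had 0, 1 and 23 counts in collagen cells and 0, 1 and 39 in Matrigel cells. Its sums were 18.7 CPM (17.5 to 20.1) in collagen cells and 16.9 CPM (16.5 to 17.4) in Matrigel cells, a ratio of 0.14.

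Occludin, the MARVEL-domain protein of the junction, had 0, 4 and 37 counts in the lowest, median and highest thinned collagen cells, against 0, 3 and 29 in Matrigel cells. The summed Ocln level was 67.4 CPM in collagen cells (64.9 to 69.9) and 44.1 CPM in Matrigel cells (43.4 to 44.9), a log2 ratio of 0.60. Its shares of thinned cells with a count were near equal, at 89.8% in collagen cells and 88.4% in Matrigel cells.

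Tjp1, which encodes ZO-1, differed across most of its distribution and not in a tail alone. It had 0, 6 and 47 counts in the lowest, median and highest thinned collagen cells, against 0, 2 and 29 in Matrigel cells. The upper quartile of the Matrigel cells, 4 counts, lay below the median of the collagen cells. The sum was 102 CPM in collagen cells (99.1 to 105) and 35.0 CPM in Matrigel cells (34.3 to 35.7), a log2 ratio of 1.52 and a fold of 2.87. It was found in 92.8% of thinned collagen cells (89.0% to 95.6%) and 80.4% of thinned Matrigel cells (78.2% to 82.4%). Over the 11 alternative settings run on this comparison, the ratio of Tjp1 lay between 1.42 and 1.56, the narrowest range among the 3 called genes. Non-whole values, which can arise where reads match more than 1 gene, were 6.17% of its values above 0, the highest share of the 10 genes.

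**Figure D2:**
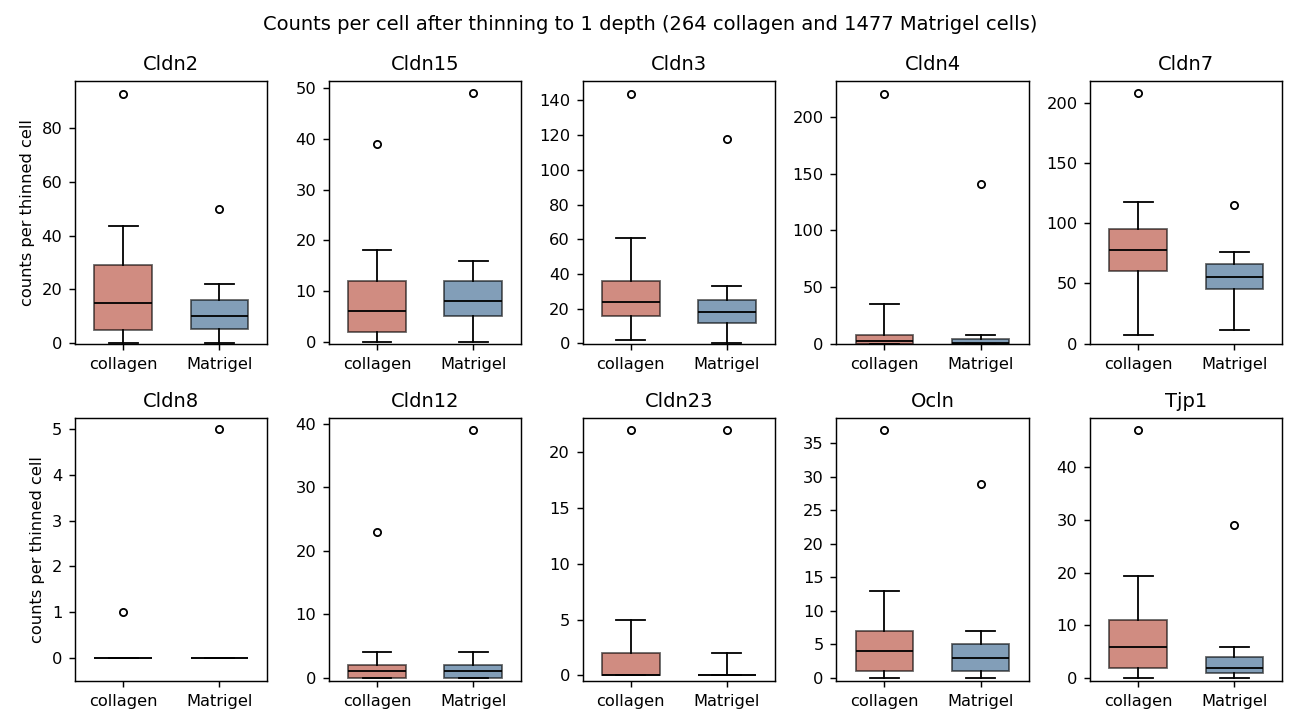
Counts per cell of each gene after thinning to 77858 counts, in 264 collagen cells (red, left) and 1477 Matrigel cells (blue, right). Boxes span the quartiles with the median as a line, whiskers run from the lowest cell to the 90th percentile and the open circle is the highest cell. Cldn4 parts in its upper tail, and Tjp1 in its median and upper quartile as well.

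Most of the further tight junction genes that were counted lay within 2-fold, and all had ratios above 0. Of 15 genes of the MARVEL, scaffold, JAM and angulin lists that reached 5 CPM, 5 were past 2-fold on the collagen side, none was past it on the Matrigel side, and 10 were within 2-fold, beside 8.21% of all genes on the collagen side and 8.91% on the Matrigel side. Their log2 ratios ran from 0.09 to 2.82, with a median of 0.68. Ildr1, which encodes an angulin of the corners where 3 cells meet, had 40.3 CPM in collagen cells and 4.86 CPM in Matrigel cells, a ratio of 2.82. F11r, which encodes the junctional adhesion molecule JAM-A, had 154 CPM in collagen cells and 54.4 CPM in Matrigel cells (ratio 1.48). Each of the 3 genes of the JAM and CAR list that reached 5 CPM was past 2-fold on the collagen side.

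The other called genes were Cxadr, which encodes the coxsackievirus and adenovirus receptor of the junction, Igsf5, which encodes JAM4, and the scaffold gene Cgnl1, which encodes paracingulin. Cxadr had 155 CPM in collagen cells and 69.7 CPM in Matrigel cells (ratio 1.15), and Igsf5 had 16.1 CPM in collagen cells and 6.60 CPM in Matrigel cells (1.17). Cgnl1 had 27.0 CPM in collagen cells and 12.3 CPM in Matrigel cells (1.07). Igsf5 had 57.3% and Cxadr 31.3% non-whole values, so their levels are uncertain. In the scaffold list, Tjp1 had the highest ratio of 9 genes, and Tjp3 (0.39, at 116 CPM in collagen cells and 88.1 CPM in Matrigel cells), named after its value was seen, stayed within 2-fold. Patj, a polarity scaffold, had a ratio of 0.86 and Cgn, which encodes cingulin, 0.69. Of the MARVEL list, Ocln (0.60) had the highest ratio, before Marveld2 (0.20), which encodes tricellulin, and Marveld3 (0.09). Lsr, the other angulin gene that reached 5 CPM, had a ratio of 0.49.

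Of the claudin family, 26 of 34 listed symbols were in the table, and 7 of these reached 5 CPM, all of them among the 10 genes. The 18 claudins outside the 10 genes stayed under 1 CPM in both cultures. Lists of neighbouring junctions and partners are counted for comparison, and the genes named from them were chosen after their values were seen. Of 7 polarity genes and 5 desmosome genes, none was past 2-fold. Their median log2 ratios were 0.58 and 0.64, and that of the adherens junction list was 0.64. A median near the 0.60 of the 9 members was thus not particular to tight junction genes. The medians were 0.43 for junction contraction, 0.44 for claudin partners and 0.07 for the transcription factors. Of 9 adherens junction genes, Nectin2 was higher in collagen cells (1.17) and Nectin1 lower (-1.14). Among 11 genes of junction contraction Myl12b was higher (1.40, with 99.1% non-whole values) and Mylk, the myosin light chain kinase gene, was lower (-1.66, at 1.92 CPM in collagen cells and 8.20 CPM in Matrigel cells). Of 5 claudin partners and proteases, Spint1, which encodes an inhibitor of the protease matriptase, was higher (1.66). Of 7 transcription factors known or proposed to act on claudin genes, Cdx1 was lower (-1.24).

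**Figure D3:**
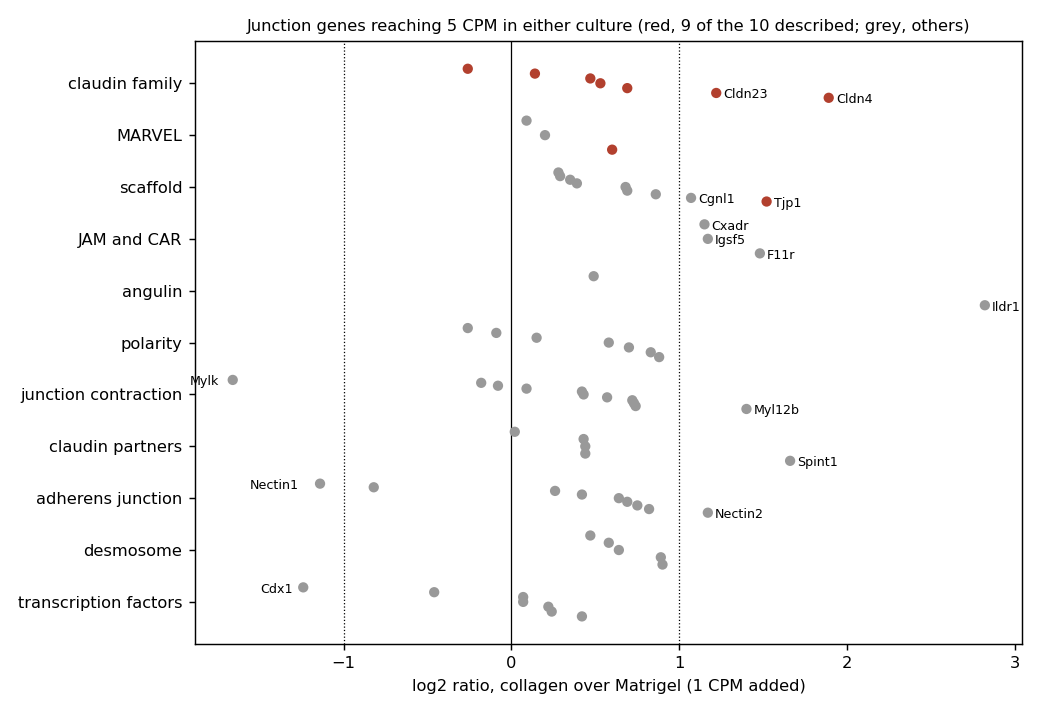
Log2 ratios, collagen over Matrigel, of the junction genes that reached 5 CPM in either culture, by list, with 1 point a gene (red, 9 of the 10 genes described; grey, the others). Dotted lines mark 2-fold. The 3 JAM and CAR points all lie past the line on the collagen side, and the polarity and desmosome points all lie between the lines.

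The second comparison set enterocyte-marker against stem-marker cells within each culture, on markers that are none of the 10 genes. Thinned cells were called enterocyte-marker cells where at least 2 of 10 enterocyte markers had 2 or more counts and Lgr5, the receptor gene of crypt stem cells, had fewer than 2. They were called stem-marker cells where Lgr5 had 2 or more counts and fewer than 2 enterocyte markers did. Collagen had 139 enterocyte-marker and 21 stem-marker cells, with 50 positive for both and 54 for neither. Matrigel had 197 enterocyte-marker and 48 stem-marker cells, with 1228 positive for both and 4 for neither, so the classes held a small part of its cells. Among the enterocyte markers, Fabp2 reached 2 counts in 38.3% of collagen cells and 94.2% of Matrigel cells. Many cells lay near the limit: 83 collagen and 684 Matrigel cells had exactly 2 enterocyte markers, and 57 collagen and 52 Matrigel cells had exactly 1.

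In collagen, none of the 9 members was at least 2-fold higher in enterocyte-marker cells, beside 3.71% of 10556 genes, and none was at least 2-fold lower, beside 6.93%. Cldn23 had 22.1 CPM in enterocyte-marker cells and 11.6 CPM in stem-marker cells, a log2 ratio of 0.87. Cldn3 had 406 CPM in enterocyte-marker cells and 249 CPM in stem-marker cells (0.71), and Tjp1 had 100.0 CPM in enterocyte-marker cells and 70.9 CPM in stem-marker cells (0.49). Cldn2 had 233 CPM in enterocyte-marker cells and 302 CPM in stem-marker cells (-0.37). The pore-forming sum was likewise a smaller part of the barrier-type sum, at 20.6% in enterocyte-marker cells and 33.0% in stem-marker cells. Cldn4 had 138 CPM in enterocyte-marker cells and 86.6 CPM in stem-marker cells (0.66). Most of these directions did not hold under every alternative: over 13 of them the ratio ran from -1.0 to 1.65 for Cldn4, -0.65 to 0.40 for Cldn2, -0.54 to 0.70 for Tjp1 and -0.04 to 0.85 for Cldn3. That of Cldn23 kept its sign, at 0.31 to 1.36. The stem-marker class of collagen held only 21 cells.

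In Matrigel, Cldn23 was higher in enterocyte-marker cells, and Cldn3 and Cldn15 leaned the same way. Cldn23 had 22.1 CPM in enterocyte-marker cells and 4.33 CPM in stem-marker cells, a log2 ratio of 2.12. It was the 1 member of 9 at least 2-fold higher, beside 4.26% of 10481 genes, and none was at least 2-fold lower, beside 3.16%. Cldn3 had 339 CPM in enterocyte-marker cells and 232 CPM in stem-marker cells (0.54), and Cldn15 had 139 CPM in enterocyte-marker cells and 102 CPM in stem-marker cells (0.44). Cldn4 ran the other way, with 24.0 CPM in enterocyte-marker cells and 41.7 CPM in stem-marker cells (-0.77). Cldn2, at 129 CPM in enterocyte-marker cells and 139.8 CPM in stem-marker cells, was near equal (-0.12), as were Tjp1 (-0.06), Ocln (-0.25) and Cldn12 (-0.17). The pore-forming sum was 23.0% of the barrier-type sum in enterocyte-marker cells and 25.6% in stem-marker cells.

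Because most Matrigel cells were positive for both kinds of marker, all cells at depth were also ordered by the number of enterocyte markers, a rule chosen after the class sizes were seen. In collagen, Lgr5 was positive in 28% of cells with 0 or 1 marker and in 22.9% of those with 4 or more. Over 0 or 1, 2, 3 and 4 or more markers (75, 83, 58 and 48 cells), Cldn4 had 214, 117, 116 and 107 CPM. Tjp1 had 123, 105, 79.6 and 84.4 CPM, and Ocln had 84.2, 63.6, 62.1 and 56.2 CPM. These 3 genes were highest in the cells with the fewest enterocyte markers. Cldn3 (363 to 375 CPM) and Cldn23 (16.6 to 25.1 CPM) showed no such order, and Cldn2 had 231, 254, 249 and 273 CPM. With 4 or more set against 1 or fewer markers, no member was at least 2-fold higher, beside 3.61% of 10312 genes. None was at least 2-fold lower, beside 4.07%, and Cldn4 lay at the limit.

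In Matrigel the order followed Lgr5 more closely, which was positive in 92.3% of cells with 0 or 1 marker and 16.2% of the 37 cells with 7 to 10. Along it, from 0 or 1 marker over 2, 3, 4, 5 and 6 to 7 to 10 markers, Cldn4 had 41.4, 42.3, 42.3, 24.6, 13.3, 13.7 and 6.56 CPM. It was level up to 3 markers and lower in each later step but that from 5 to 6.

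Cldn23 went the opposite way along the same order, with 4.50, 5.18, 5.54, 9.44, 10.1, 17.2 and 51.1 CPM. Cldn3 had 239, 235, 242, 259.9, 272, 386 and 483 CPM. The pore-forming claudins parted at the far end: Cldn2 had 137, 143, 152, 166, 180.1, 125 and 69.0 CPM, and Cldn15 had 106, 108, 114, 103, 126, 149.9 and 211 CPM. Cldn2 was thus highest at 5 markers and lowest at 7 to 10, where Cldn15 was highest. Their sum over the barrier-type sum moved less, between 22.0% and 27.8%. Ocln had between 41.1 and 53.4 CPM, Tjp1 between 32.8 and 40.2 CPM and Cldn12 between 15.9 and 21.2 CPM, without such an order.

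With 5 or more set against 2 or fewer markers in Matrigel, Cldn23 had 21.8 CPM in the 143 cells with 5 or more and 5.14 CPM in the 736 cells with 2 or fewer (1.89). It was the 1 member of 9 at least 2-fold higher, beside 3.99% of 10301 genes. Cldn4 had 11.6 CPM in the cells with 5 or more and 42.2 CPM in those with 2 or fewer (-1.77), and was the 1 member at least 2-fold lower, beside 3.04%. Cldn2, at 142 CPM and 143 CPM in the same sets, did not show its turn in this coarser comparison.

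**Figure D4:**
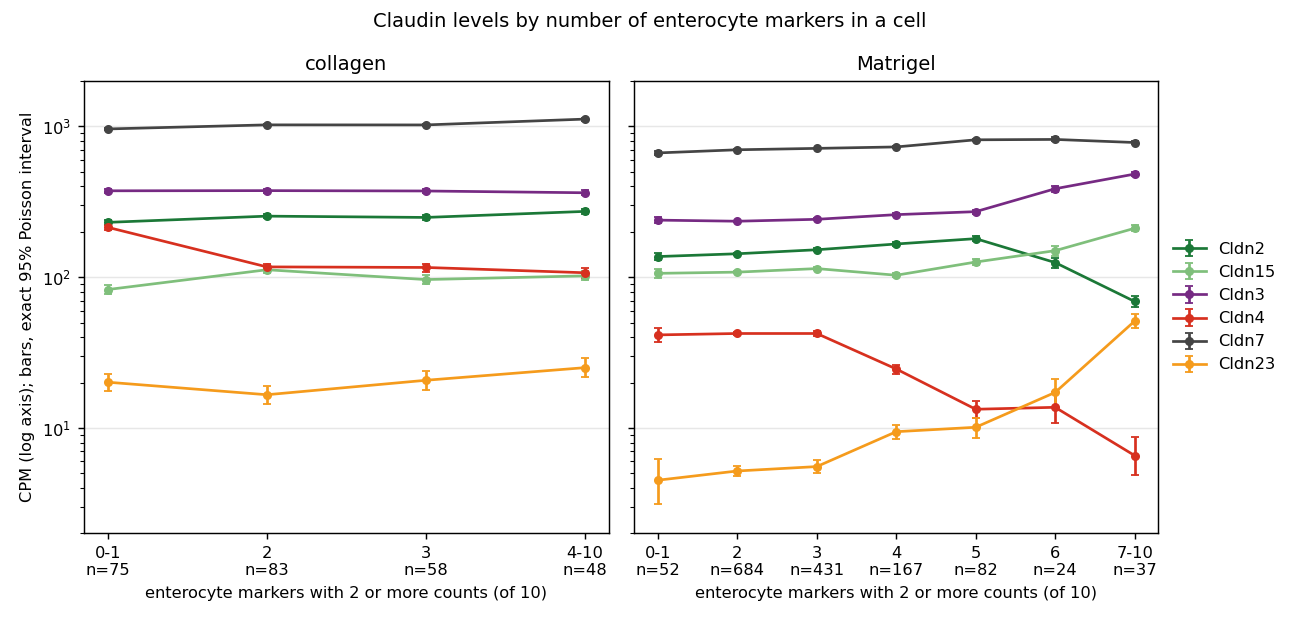
Summed CPM (log axis) of 6 claudins in thinned-depth cells grouped by how many of 10 enterocyte markers had 2 or more counts, in collagen (left) and Matrigel (right), with exact 95% Poisson intervals and the number of cells under each group. In Matrigel, Cldn4 ends at 6.56 CPM and Cldn23 at 51.1 CPM. The groups of collagen end at 4 or more markers, and with Matrigel grouped alike Cldn4 has 214 CPM in collagen and 41.4 CPM in Matrigel at 0 or 1 marker, and 107 CPM in collagen and 18.5 CPM in Matrigel at 4 or more.

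The difference between cultures was also taken within cells of the same number of enterocyte markers. For 0 or 1, 2, 3 and 4 or more markers, the log2 ratio of collagen over Matrigel was 2.34, 1.45, 1.43 and 2.46 for Cldn4. It was 1.71, 1.60, 1.23 and 1.22 for Tjp1 and 1.94, 1.51, 1.73 and 0.69 for Cldn23. Cldn4 and Tjp1 were thus at least 2-fold higher in collagen at each number of markers, and Cldn23 at each but the highest. Cldn15 had ratios between -0.35 and 0.05, and Cldn2 between 0.71 and 0.82.

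Collagen cells also carried genes of the regenerative, fetal-like state that gut epithelium takes on after injury, and Cldn4 was higher in the cells that held them. Cells with 2 or more counts of at least 2 of 5 regenerative markers, among them Ly6a and Clu, numbered 171 of the 264 thinned collagen cells, against 48 of 1477 in Matrigel. Within collagen, Cldn4 had 174 CPM in regenerative-marker cells and 79.2 CPM in the other 93 cells (1.13). It was the 1 member of 9 at least 2-fold higher, beside 1.42% of 10311 genes, and none was at least 2-fold lower, beside 2.43%. Tjp1 had 115 CPM in regenerative-marker cells and 70.9 CPM in the others (0.70), Ocln had 74.9 CPM in regenerative-marker cells and 53.4 CPM in the others (0.48), and Cldn3 had 403 CPM in regenerative-marker cells and 308 CPM in the others (0.39). Cldn2 (-0.14), Cldn15 (-0.23), Cldn7 (0.06) and Cldn23 (-0.13) were near equal. The pore-forming sum was 20.7% of the barrier-type sum in regenerative-marker cells and 27.2% in the others.

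Splitting collagen cells by Ly6a, the gene of the surface protein Sca-1, and the mucin gene Muc3, a split chosen after values were seen, set Cldn2 apart from Cldn4. The 67 cells with Ly6a and without Muc3 had 167 CPM of Cldn2, 71.7 CPM of Cldn15 and 166 CPM of Cldn4. The 134 cells with Muc3 had 277 CPM of Cldn2, 106 CPM of Cldn15 and 155 CPM of Cldn4. The 63 cells with neither had 289 CPM of Cldn2, 113 CPM of Cldn15 and 91.7 CPM of Cldn4. Cldn4 was thus lowest where both marks were missing, and the pore-forming genes were lowest in Ly6a cells that lacked Muc3.

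Cells with secretory markers had claudin profiles of their own, in small numbers. The 4 enteroendocrine-marker cells of collagen had 313 CPM of Cldn4, from 152 of the 6096 Cldn4 counts of collagen, and 4.12 CPM of Cldn15, from 2 counts. The 9 enteroendocrine-marker cells of Matrigel had 225 CPM of Cldn4, 62.4 CPM of Cldn23, 33.2 CPM of Cldn2 and 8.06 CPM of Cldn15, the last from 8 counts. In both cultures these few enteroendocrine-marker cells were thus above the level of the whole culture in Cldn4 and below it in Cldn15. In collagen, the 74 cells with Sprr1a had still more Cldn4, at 369 CPM. The 41 goblet-marker cells of Matrigel had 47.6 CPM of Cldn2, 172 CPM of Cldn15 and 419 CPM of Cldn3, and its 48 Paneth-marker cells had 91.9 CPM of Cldn2, 124 CPM of Cldn15 and 303 CPM of Cldn3. Goblet-marker and enteroendocrine-marker cells of Matrigel were both low in Cldn2 and far apart in Cldn15. Cldn3 in goblet-marker and Paneth-marker cells lay above the 252 CPM of all Matrigel cells at depth. In collagen it lay below the 372 CPM of all cells at depth, at 184 CPM in 3 goblet-marker and 230.1 CPM in 7 Paneth-marker cells. Cldn2 in these collagen cells was 160.3 and 158 CPM (249 CPM in all at depth), and Cldn15 was 275 and 119 CPM (98.3 CPM).

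Cells left out of the thinned comparisons differed in some members. The 72 collagen cells below the thinning depth had 143 CPM of Cldn4, as in the whole culture, and 118 CPM of Cldn2, below its 239 CPM. The 122 shallow Matrigel cells had 80.5 CPM of Cldn4 and 69.2 CPM of Tjp1, above the 37.9 and 35.0 CPM of that culture. Depth thus moved with these levels, and its part in them was not tested. The sums over whole cultures include these cells.

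Across single collagen cells, Cldn2 and Cldn15 ran together and against Cldn4 and Tjp1, and Cldn12 ran with none of them. Spearman's rho over the 264 thinned cells, which share a library and a depth, was 0.33 for Cldn2 with Cldn15. It was 0.41 for Cldn3 with Cldn4, 0.37 for Cldn3 with Ocln, 0.35 for Cldn4 with Ocln and 0.32 for Cldn4 with Tjp1. Between Cldn2 or Cldn15 and these 4 genes it was negative, from -0.35 for Cldn15 with Cldn4 to -0.08, near 0, for Cldn15 with Cldn3. It was -0.30 for Cldn2 with Cldn4, -0.25 for Cldn15 with Tjp1 and -0.19 for Cldn2 with Ocln. Cldn23 (0.09 with Cldn2 and 0.28 with Cldn3) and Cldn7 (-0.04 with Cldn2 and 0.34 with Cldn3) were not on a clear side. In the 1477 Matrigel cells the pairs of these 9 genes ran from -0.05 to 0.20, so no such pattern could be seen there. Cldn2 with Cldn15 had -0.04 in Matrigel. Mean counts per thinned cell were lower in Matrigel for Cldn4, Tjp1 and Ocln, and higher for Cldn15 (8.88 in Matrigel and 7.75 in collagen). The part of counts per cell in the correlations was not tested. The correlations describe cells of a single suspension and carry no test.

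**Figure D5:**
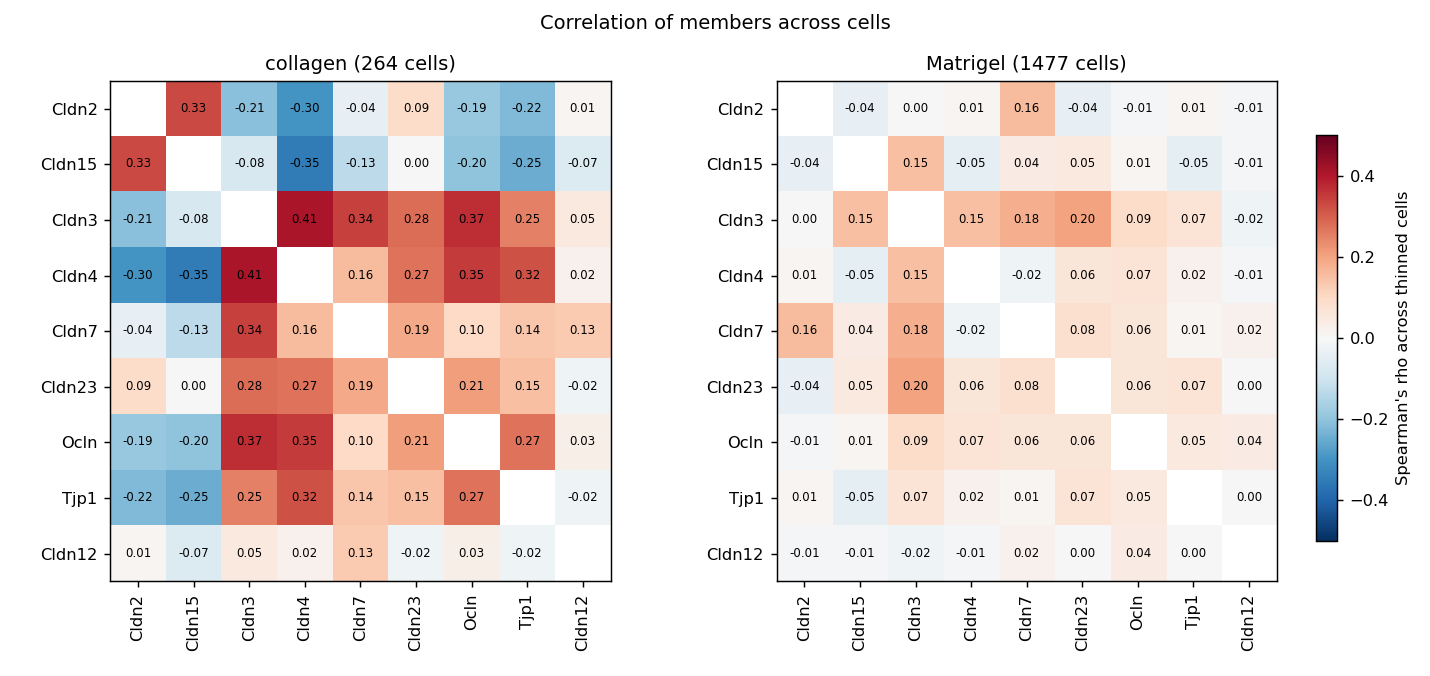
Spearman's rho between pairs of 9 of the genes across thinned cells, in collagen (left, 264 cells) and Matrigel (right, 1477 cells). Red is positive and blue negative. In collagen, Cldn2 and Cldn15 are positive with each other and negative with Cldn4, Ocln and Tjp1, and Cldn3, Cldn4, Ocln and Tjp1 are positive with each other.

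The genes whose counts ran most closely with each member in collagen, among 2766 genes of at least 50 CPM, differed from member to member. For Cldn2 they were Kcne3 (0.64), Ccnd2 (0.47) and Cftr (0.47), of which Kcne3 encodes a potassium channel subunit and Cftr the chloride channel of gut secretion. For Cldn15 they were Lypd8 (0.44), Lgals2 (0.41) and Gdpd1 (0.40). Cldn3 had Cxadr and Nectin2 (0.43 each) and Cldn4 (0.41), all genes of cell junctions, and Cldn4 had Pmaip1 (0.50), Cxcl16 (0.48) and the keratin gene Krt18 (0.46).

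For the remaining members, Cldn7 had Ero1a (0.41), Pfkp (0.40) and Tmem45b (0.39), Ocln had Cldn3 (0.37), Gm49909 and Nectin2 (0.35 each), and Tjp1 had Ahnak (0.50), Wwc1 (0.45) and Gm9844 (0.43). In Matrigel, the highest rho of any of these members with any of 2717 genes was 0.30, for Cldn4 with Krt18, which was also among its nearest genes in collagen. Lypd8 was likewise among the 3 nearest genes of Cldn15 in both cultures, at 0.19 in Matrigel.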

How the data were processed

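The authors deposited a table of unscaled expected counts, with a row for each gene and a column for each cell of the pooled library. A second deposited table holds whole-number counts per hashtag and cell. The submitters' processing notes name the GRCm39 build, STARsolo 2.7.10a, cutadapt 4.1 and R 4.2.1, and no source used here names the annotation.

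Cells took their culture from the hashtag prefix of their names. The 139 cells named as doublets were left out, and 9 columns of other hashtags were not used. A filter on cells (500 or more genes, mitochondrial share up to 30%) took out 16 Matrigel cells and 0 collagen cells. Counts were summed over cells, divided by the total and multiplied by 1000000 (CPM). A gene was called at a ratio of at least 2-fold with 1 CPM added, where it reached 5 CPM in either group. Intervals were exact 95% Poisson (sums, rounded to whole counts) or Clopper-Pearson (shares). For shares, distributions, classes and correlations, cells were reduced to 77858 counts, the 10th percentile of depth, by random draws without replacement. 72 collagen and 122 Matrigel cells fell below it. Levels of classes were sums of unthinned counts.

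The genes and lists were chosen with earlier results of these data known. Named genes were all 10 members, Epcam, up to 4 genes of each tight junction list, members included, with the largest absolute ratio, and the 3 nearest genes of each member of at least 20 CPM by Spearman's rho. Bins by number of enterocyte markers, the Sprr1a, Muc3 and secretory sets (goblet and Paneth, 3 markers; enteroendocrine, 2) and the motifs were chosen after values were seen. The scripts were tested on simulated data. Python 3.11.15 was used with numpy 2.4.6, scipy 1.17.1 and pandas 2.3.3. A few genes of the lists are counted in them and not reported here by name.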

Additional observations from a re-analysis of the deposited data

Results flagged for a closer look

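Cldn4 was the 1 gene of the 10 whose enterocyte-marker and stem-marker cells differed by at least 1.5-fold in opposite directions in the 2 cultures. It was higher in enterocyte-marker cells in collagen (log2 ratio 0.66, with 138 CPM in enterocyte-marker and 86.6 CPM in stem-marker cells) and lower in them in Matrigel (-0.77, with 24.0 CPM in enterocyte-marker and 41.7 CPM in stem-marker cells), and the ratios differed by 1.43. The difference was not tested, since each culture was a single suspension. Ordered by number of enterocyte markers instead, Cldn4 was lower at the upper end in both cultures, at -1.0 in collagen and -1.77 in Matrigel.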

How the results depend on the processing

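No paired analysis was possible because each culture was a single suspension. The number of members at least 2-fold higher in collagen was 3. It became 5 at 1.5-fold, and 2 with every cell weighted the same and with 5 CPM added, where the Cldn23 call was lost. The pore-forming minus barrier-type difference of -0.22 was -0.25 with every cell weighted the same and 0.00 without the cells with Sprr1a. The number higher in enterocyte-marker cells in collagen was 0. It was 1 with every cell weighted the same, with thinned counts and with markers of 1 or more counts, 2 without the 5% of cells highest in a gene, 2 with more markers asked, and 3 at 1.5-fold. The number lower in enterocyte-marker cells in Matrigel was 0. It was 1 at 1.5-fold, with whole-number values only, with more markers asked and with classes by number of enterocyte markers. In each case of changed counts and classes the cause was not tested.

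Of the values of summary results under alternatives, 78 were classed as the same as the main value and 13 as moved. Of those of single genes, 293 were classed as the same and 119 as moved. The classes do not follow a fixed distance. A fall from 3 to 2 members higher in collagen was classed as the same. So was a rise of the Cldn8 ratio, enterocyte-marker over stem-marker in collagen, from 0.38 to 2.01. A rise of the Cldn2 ratio, collagen over Matrigel, from 0.69 to 0.73 was classed as moved. No alternative changed the sign of a called value. Ratios of collagen over Matrigel ran from 1.20 to 1.93 for Cldn4, 1.42 to 1.56 for Tjp1, 0.94 to 1.38 for Cldn23, 0.57 to 0.81 for Cldn2 and -0.37 to -0.16 for Cldn15. Scaling by the median ratio of genes shifted ratios by 0.03. Without a filter on low levels, 2.85% of 37172 genes were at least 2-fold higher in collagen and 3.06% lower. Depth limits Cldn8, with 9 counts in collagen, and the classes of under 50 cells.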
